A study of Mus musculus with 12 samples.

Results

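The genes described here are 42 mouse genes of glucose use and of the response to low oxygen, chosen by name. They comprise 4 transporters of glucose and lactate, 12 genes of upper glycolysis, 8 of lower glycolysis, 3 pyruvate dehydrogenase kinases, 7 genes of the pentose phosphate pathway, and the hypoxia factor Hif1a with 7 genes around it. They were found in the deposited table by matching Ensembl gene IDs to symbols in the GENCODE M21 annotation, and all 42 are among its 23438 genes. All 42 also passed the filter for testing (at least 1 TPM in at least 5 libraries), as did 11152 genes of the table. Adm passed it with exactly 5 libraries, WT replicates 2, 3, 4 and 5 and KO replicate 5.

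RNA was sequenced from bone marrow derived macrophages (BMDMs), cells grown from mouse marrow into macrophages and collected on day 7 of that differentiation. The series compares 7 wild-type (WT) libraries with 5 libraries from Baf60a knockout (KO) cells, and every library came from atherosclerotic C57 mice. Baf60a is the protein of the gene Smarcd1, a subunit of the SWI/SNF complex that moves nucleosomes along DNA. The sources used here do not give how atherosclerosis was induced, how and in which cells the gene was deleted, or the age of the mice. They also do not say whether libraries came from separate mice, so a p-value reflects only the spread among the libraries at hand, part of which may be technical. Values are in TPM, the share of a gene's transcripts in a library on a fixed total, corrected for gene length, so levels can be set beside each other between genes.

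Glycolysis breaks glucose down to pyruvate in the cytosol, and lactate dehydrogenase turns pyruvate into lactate when it is not sent to the mitochondria. The pentose phosphate pathway branches off after the first step, and yields NADPH, used for oxidant production and for antioxidant defence in phagocytes, and ribose for nucleotides. HIF-1, whose oxygen-regulated subunit is encoded by Hif1a, raises transcription of many glycolytic genes in low oxygen and in activated macrophages, and prolyl hydroxylases of the Egln family mark that subunit for degradation when oxygen is present.

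WT replicates 2, 3 and 4 stood apart from the other 9 libraries in markers of cell type, so each comparison is given with all 12 libraries and with the 9 that are left without them. The summed level of 10 fibroblast and smooth muscle markers was 5456, 3909 and 9804 TPM in WT 2, 3 and 4. It was 113 to 426 TPM in WT 1, 5, 6 and 7 and 191 to 606 TPM in the KO libraries. Much of that sum is Acta2, at 2076, 1574 and 4236 TPM in WT 2, 3 and 4, and Tagln, at 2150, 1467 and 3563 TPM. Not all of these markers followed the sum. Dcn was at 11.05, 3.22 and 4.38 TPM in WT 2, 3 and 4, against 2.06 to 8.84 TPM in the other 9, and Lum was below 1 TPM in every library. The remaining markers of the list were above the other 9 in all 3. The 9 macrophage markers summed to 20290.2, 26926 and 7831 TPM in WT 2, 3 and 4, 25423 to 29197 TPM in WT 1, 5, 6 and 7 and 15740.2 to 16247 TPM in KO. Much of that sum is Lyz2, a lysozyme gene, at 16587, 21547 and 5232 TPM in WT 2, 3 and 4, 14635 to 16912 TPM in the other WT and 4932 to 5853 TPM in KO. The other 8 markers summed to 2599 to 5379 TPM in those 3 libraries, 10788 to 13070 TPM in the other WT and 10394 to 10963 TPM in KO, so the labelled cell type was present in all 12. C1qa, C1qb, C1qc and Csf1r were below the other 9 libraries in all 3. Cd68 was at 1533, 1718 and 1120 TPM in WT 2, 3 and 4, against 1379 to 1710 TPM in the other 9. Adgre1, Itgam and Mertk in WT 3 lay within the range of the other 9, while in WT 4 all 8 were below it. With 9 libraries 2 of the 9 macrophage markers, Lyz2 and C1qc, were called, both lower in KO. The 10 neutrophil markers summed to 151 to 174 TPM in WT 2, 3 and 4 and to 1202 to 1557 TPM in the other WT. In KO they ranged from 1013 to 6268 TPM, with KO 1 (6268) and KO 4 (4382) highest. Mmp8, 1 of the 10, went the other way, at 65.6 to 72.2 TPM in WT 2, 3 and 4 and 5.89 to 11.4 TPM in the other 9. It was not raised in KO 1 (8.61 TPM) or KO 4 (6.5 TPM). Lymphocyte markers summed to at most 0.43 TPM, erythroid markers to at most 3.64 TPM and mast cell and basophil markers to at most 12.8 TPM. Smarcd1 itself lay at 5.99 to 7.58 TPM in KO and 11.6 to 15.6 TPM in WT, a log2 fold change of -0.88 with 12 libraries (limma adjusted p of 7.44e-04). In such bulk libraries, fewer cells of a type and less RNA per cell cannot be told apart.

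With all 12 libraries none of the 42 genes passed the test for KO against WT. The test was limma on log2(TPM + 1), adjusted by the Benjamini-Hochberg method over the 11152 genes, with a threshold of 0.05, and a gene past it is said to be called. Among all tested genes it called 12 that were higher in KO (0.108%) and 2 that were lower (0.0179%). The smallest limma adjusted p of the 42 was 0.112, for Hk1, and 9 of the 42 (21.4%) had an unadjusted p under 0.05, against 17.5% of all tested genes. With 9 libraries these shares were 42.9% and 18.9%, and 6 of the 42 were called. Hk1, Hk3, Aldoc and G6pdx were higher in KO, 9.52% of the 42 against 1.61% of all tested genes, and Hk2 and Eno1 were lower, 4.76% against 0.717%. The changes were small, the largest being 0.49 on the log2 scale for Aldoc. The median log2 fold change of the 42 was 0.02 with 12 libraries and -0.02 with 9, against 0.04 and 0.05 over all tested genes, and 13 of the 42 changed sign between the fits. In the plot of fold changes, the 9-library intervals are narrower than those of 12 libraries for every gene except Slc2a3, Eno2 and Ndrg1. All KO libraries lay above all WT libraries for 4 of the 42 genes and below them for 2. Against WT 1, 5, 6 and 7 alone the counts were 7 and 5. Such counts were not made over all tested genes, so a lack of overlap named below is a description and adds nothing to the test.

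The count of 6 rested on single libraries. It was 0 without WT 1, without WT 7 or without KO 4, 1 without KO 2, 2 without WT 5 or without KO 3, 3 without KO 5, 6 without WT 6 and 7 without KO 1. G6pdx was called in 12 of the 15 alternatives tried with the 9 libraries, Aldoc in 10, Hk3 in 9, Hk2 and Eno1 in 5 each, and Hk1 in 4. The 6 kept their direction in all 15. Over all tested genes the 9-library calls divided into 180 higher and 80 lower in KO. With median-ratio scaling, in which a library is divided by its median ratio to the mean of each gene, they divided into 84 and 134, and 3 of the 42 were called higher and 4 lower.

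**Figure D1:**
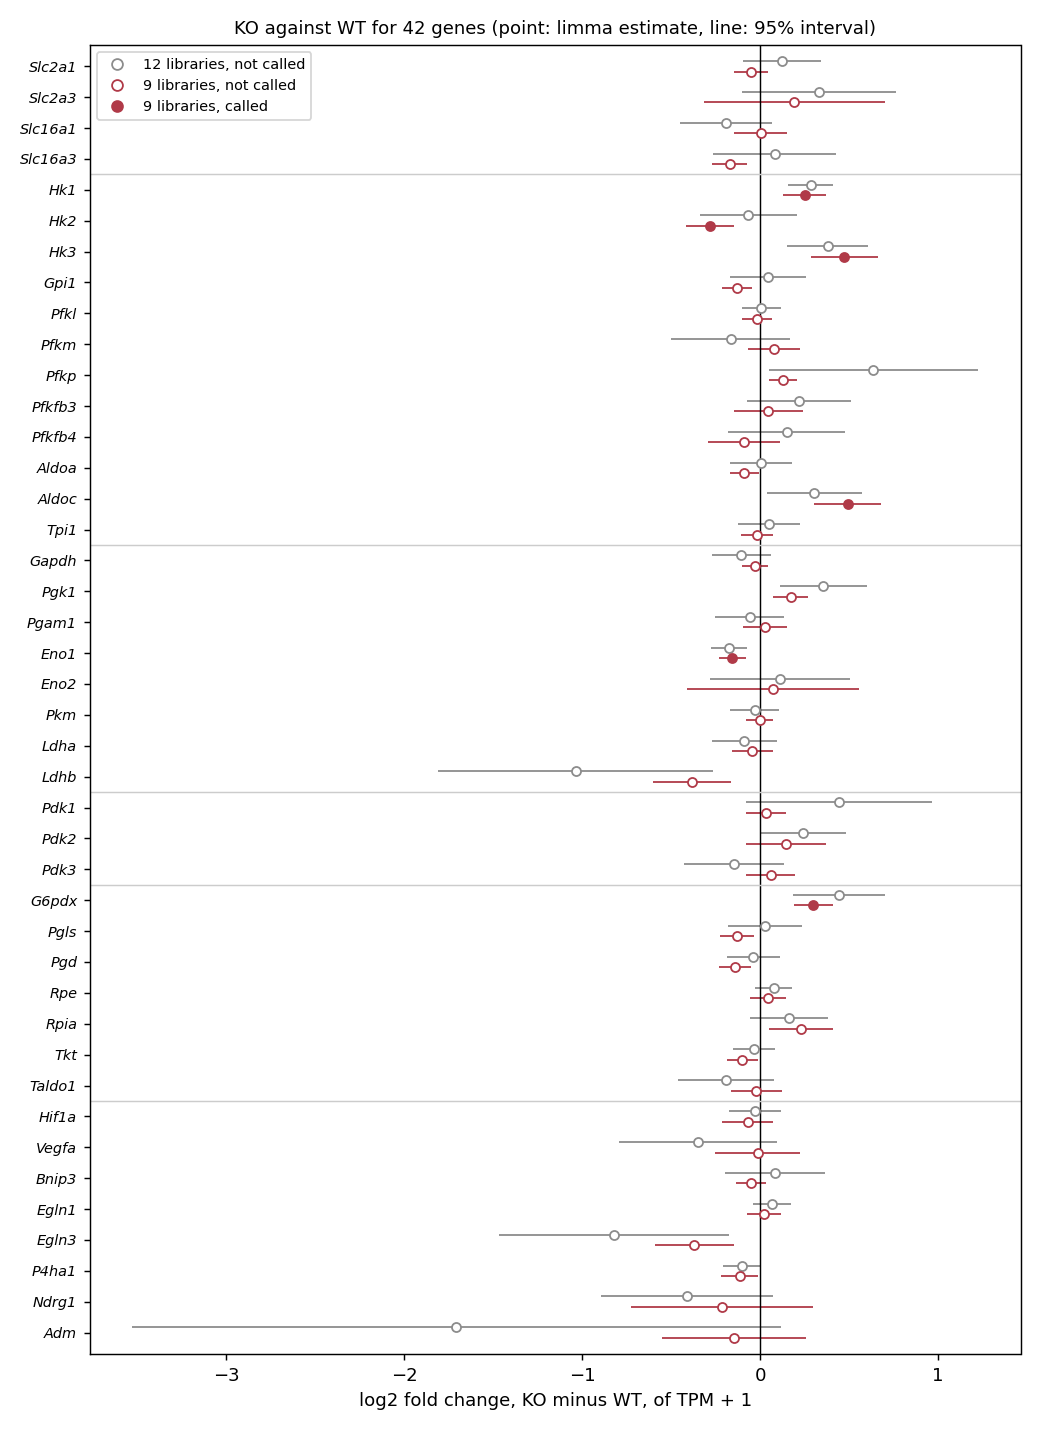
Log2 fold change of KO minus WT on the log2(TPM + 1) scale for the 42 genes, grouped by role, with grey for 12 libraries and red for 9 (points: limma estimates, lines: 95% intervals, filled: called). The 6 filled points are Hk1, Hk2, Hk3, Aldoc, Eno1 and G6pdx, and no 12-library point is filled.

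The genes differ widely in level. Averaged over the 12 libraries, 6 of the 42 genes stood above 1000 TPM, 14 between 100 and 1000, 17 between 10 and 100, and 5 below 10. Gapdh, Aldoa, Pkm, Ldha, Eno1 and Pgk1 were the 6 most abundant. Together the 42 genes made up 2.21% to 2.27% of the listed TPM in the KO libraries, 2.17% to 2.30% in WT 1, 5, 6 and 7 and 2.03% to 2.54% in WT 2, 3 and 4. The KO range lay inside that of the other WT libraries. Several of these enzymes (Gapdh, Eno1, Aldoa, Pgk1, Ldha, Tpi1 and Pgam1) have near-identical copies in the genome, between which reads are divided by a model, so their levels are uncertain. The listed copies were low. Eno1b lay at 5.23 to 7.51 TPM and Aldoart1 at 1.34 to 2.92 TPM, and Pgk1-rs7 was listed at 6.24 TPM in WT 5 and at 0 in the other libraries.

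**Figure D2:**
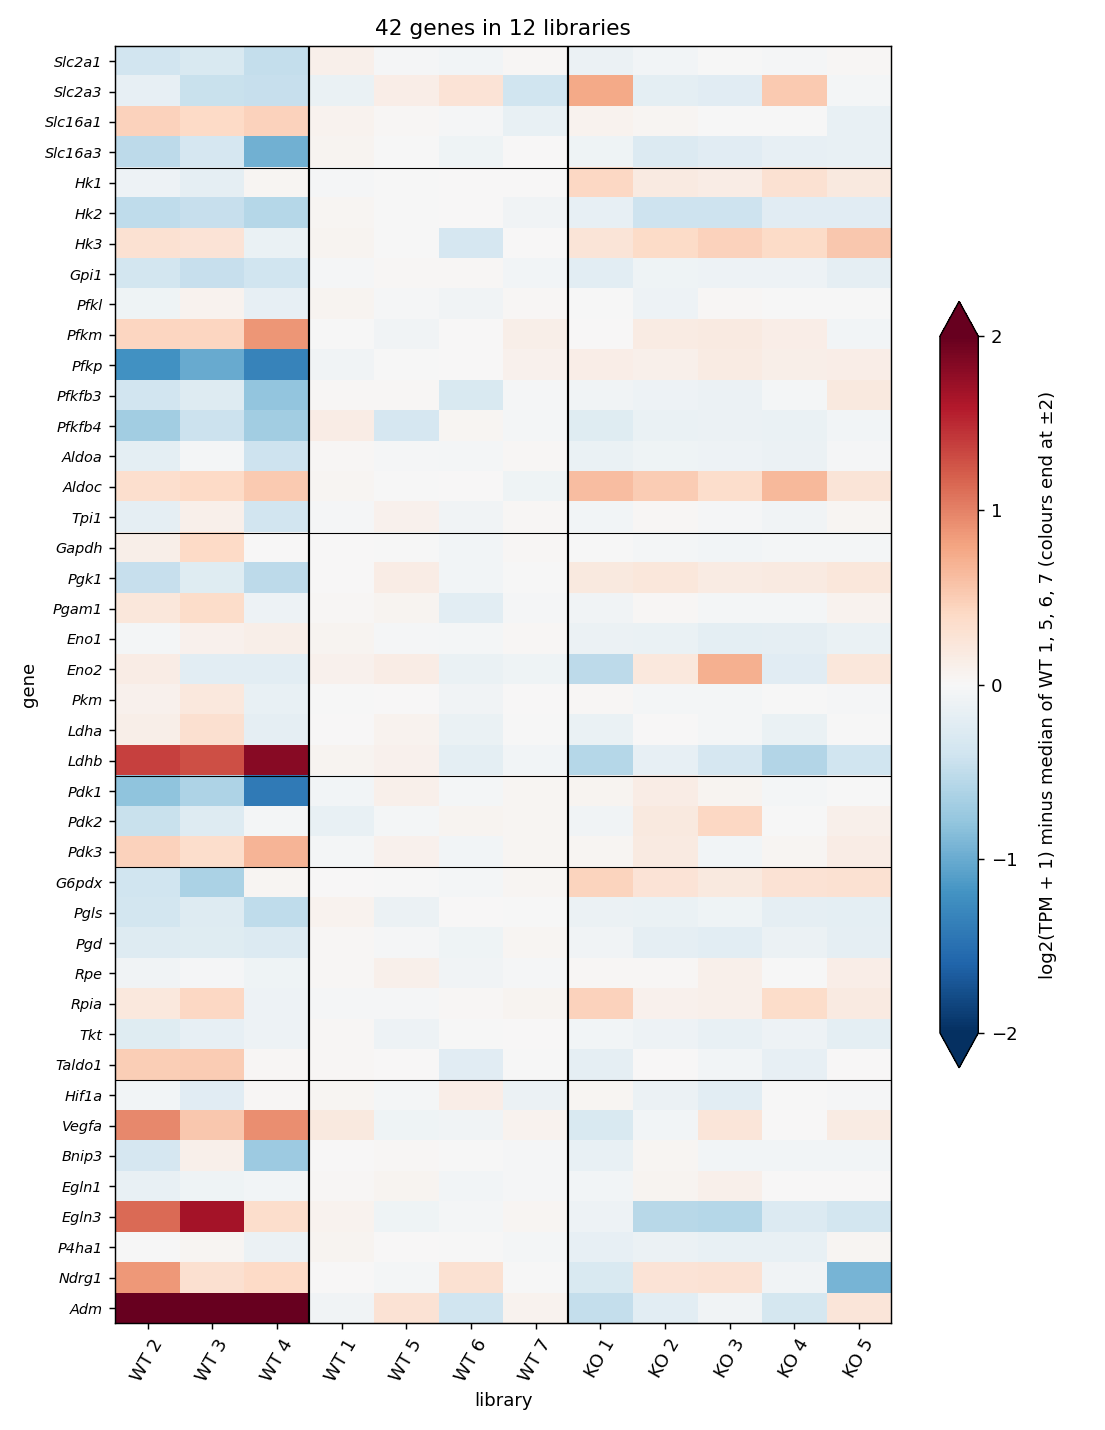
Level of each of the 42 genes (rows, by role) in the 12 libraries (columns), as log2(TPM + 1) minus the median of WT 1, 5, 6 and 7, with colours ending at 2 in each direction. The KO columns are mostly pale, with more colour for Aldoc and Hk3 and in single cells such as Ndrg1 in KO 5, Slc2a3 in KO 1 and Eno2 in KO 3. The columns of WT 2, 3 and 4 show Ldhb, Egln3 and Adm in red and Pfkp and Pdk1 in blue.

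None of the 4 transporter genes was called. Slc2a1 (GLUT1), the main glucose importer of macrophages, stood at 110, 100.4, 98.7 and 104 TPM in WT 1, 5, 6 and 7, at 77.9, 82.2 and 73.1 TPM in WT 2, 3 and 4, and at 93.6 to 104 TPM in KO. The KO libraries overlapped the first 4 and lay above the other 3. Slc2a3 (GLUT3), a transporter of high affinity, was at 12.2 and 10.2 TPM in KO 1 and KO 4 and at 5.68 to 6.58 TPM in the other KO libraries, with 4.68 to 8.47 TPM in WT. KO 1 and KO 4 are the libraries with the highest neutrophil markers, and the part of those cells in this difference was not tested. Slc16a3 (MCT4), which exports lactate, was at 281, 268, 255 and 273 TPM in WT 1, 5, 6 and 7, at 189, 215 and 139 TPM in WT 2, 3 and 4, and at 254, 224, 232, 241 and 244 TPM in KO 1 to 5. All 5 KO libraries were below the first 4, with a log2 fold change of -0.17 ± 0.0443 (SE) and a limma adjusted p of 0.0764 with 9 libraries. With 12 libraries the estimate was 0.08, and with median-ratio scaling of the 9 it was -0.22 (limma adjusted p of 0.0425). Slc16a1 (MCT1), which carries lactate and pyruvate either way, made up 2.21% to 3.11% of the pair's TPM in these 9 libraries and 4.23% to 6.67% in WT 2, 3 and 4.

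The hexokinases, which trap glucose in the cell as glucose 6-phosphate, moved in opposite directions with 9 libraries. Hk1 is the broadly expressed form, Hk2 the form that rises with activation and low oxygen in many cells, and Hk3 a form typical of myeloid cells. Their promoters are printed because these genes moved apart, with those of Eno1, which fell, and of Egln3 and Adm, the hypoxia genes that varied most. Each line gives the 250 bases before the most upstream RefSeq start (GRCm38.p6), 5′ to 3′, on the strand of the gene. Capitals mark ACGTG and GCGTG, cores of HIF binding sites, on either strand, so that CACGT and CACGC are their complements.
Hk1: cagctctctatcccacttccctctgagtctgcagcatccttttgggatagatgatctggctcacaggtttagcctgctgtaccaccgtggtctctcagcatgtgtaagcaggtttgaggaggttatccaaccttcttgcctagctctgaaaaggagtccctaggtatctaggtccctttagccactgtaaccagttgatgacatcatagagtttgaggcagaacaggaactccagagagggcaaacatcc
Hk2: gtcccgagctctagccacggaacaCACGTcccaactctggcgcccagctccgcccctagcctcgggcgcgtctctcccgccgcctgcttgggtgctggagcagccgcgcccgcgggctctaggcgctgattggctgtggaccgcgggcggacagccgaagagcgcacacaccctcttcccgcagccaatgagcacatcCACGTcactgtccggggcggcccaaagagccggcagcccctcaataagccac
Hk3: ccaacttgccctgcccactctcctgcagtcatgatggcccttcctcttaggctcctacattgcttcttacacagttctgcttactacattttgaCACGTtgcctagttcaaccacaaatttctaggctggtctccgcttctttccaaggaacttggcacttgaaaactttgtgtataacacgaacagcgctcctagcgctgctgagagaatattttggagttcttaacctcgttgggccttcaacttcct
Eno1: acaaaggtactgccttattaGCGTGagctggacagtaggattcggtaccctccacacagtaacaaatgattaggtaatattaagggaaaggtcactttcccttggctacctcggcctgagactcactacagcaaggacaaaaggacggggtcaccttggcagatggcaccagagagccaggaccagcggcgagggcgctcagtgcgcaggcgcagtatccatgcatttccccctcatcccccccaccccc
Egln3: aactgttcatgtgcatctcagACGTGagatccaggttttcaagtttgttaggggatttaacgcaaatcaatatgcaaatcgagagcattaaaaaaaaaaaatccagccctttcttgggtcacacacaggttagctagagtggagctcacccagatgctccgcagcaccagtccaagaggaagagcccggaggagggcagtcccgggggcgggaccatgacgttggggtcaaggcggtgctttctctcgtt
Adm: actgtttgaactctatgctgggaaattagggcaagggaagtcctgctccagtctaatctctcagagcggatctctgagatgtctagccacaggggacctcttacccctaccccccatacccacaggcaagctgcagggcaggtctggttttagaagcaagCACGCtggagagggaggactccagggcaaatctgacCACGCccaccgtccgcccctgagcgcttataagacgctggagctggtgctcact
The windows lie at chr10:62379909-62380158 (minus strand, Hk1), chr6:82774455-82774704 (minus, Hk2), chr13:55021386-55021635 (minus, Hk3), chr4:150236458-150236707 (plus, Eno1), chr12:54203875-54204124 (minus, Egln3) and chr7:110627407-110627656 (plus, Adm). ACGTG occurred 2 times before Hk2, 1 time before Hk3 and 1 time before Egln3. GCGTG occurred 2 times before Adm and 1 time before Eno1, and neither core occurred before Hk1. The windows of Aldoc and G6pdx, which were also called and rose, are not printed. Each held GCGTG 1 time and ACGTG 0 times. Whether the cores go with the direction of change was not tested. A match is a run of letters, not a shown binding site, and the gene sums do not show which start was used.

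Hk1 (ENSMUSG00000037012, chromosome 10, 62268855 to 62379908, minus strand, mm10) was at 99.4, 84.8, 82.4, 92.1 and 85.7 TPM in KO 1 to 5, at 73.4, 74.5, 74.8 and 75.0 TPM in WT 1, 5, 6 and 7, and at 69.4, 65.6 and 76.3 TPM in WT 2, 3 and 4. Every KO library was above every WT library. It rose by 0.25 ± 0.0532 (SE) on the log2 scale with 9 libraries (limma adjusted p of 0.0448), and the 12-library estimate was 0.28 ± 0.0577 (limma adjusted p of 0.112). KO 1 and KO 4, high in neutrophil markers, had the highest Hk1. Without them the fold change was 0.18 (limma adjusted p of 0.0439), a variant added once the data had been seen. With median-ratio scaling the call was lost, at 0.21 and a limma adjusted p of 0.0938.

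Hk3 (ENSMUSG00000025877, chromosome 13, 55005985 to 55021385, minus strand) was the most abundant hexokinase. It was at 194, 211, 224, 211 and 235 TPM in KO 1 to 5, at 169, 161, 128 and 163 TPM in WT 1, 5, 6 and 7, and at 201, 196 and 148 TPM in WT 2, 3 and 4. The KO libraries lay above the first 4 WT, but WT 2 and WT 3 lay above KO 1. Hk3 rose by 0.47 ± 0.0839 (SE) on the log2 scale with 9 libraries (limma adjusted p of 0.0242). The mean was 215 ± 15.4 TPM in KO (SD, n = 5) and 155 ± 18.3 TPM in these WT (SD, n = 4). With 12 libraries the estimate was 0.38 ± 0.104 (limma adjusted p of 0.195).

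Hk2 (ENSMUSG00000000628, chromosome 6, 82725025 to 82774454, minus strand) went the other way. It was at 46.5, 39.0, 39.2, 44.5 and 44.9 TPM in KO 1 to 5 and at 53.9, 52.4, 52.5 and 49.9 TPM in WT 1, 5, 6 and 7, without overlap. WT 2, 3 and 4, at 36.5, 38.0 and 34.9 TPM, were lower still. Hk2 fell by 0.28 on the log2 scale (SE 0.0594) with 9 libraries, with a limma adjusted p of 0.0437. The 12-library estimate was -0.07 with a limma adjusted p of 0.738.

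As shares of the 3 hexokinases, which do not depend on the scaling of a library, Hk2 took 11.3% to 13.7% in KO and 17.3% to 20.6% in WT 1, 5, 6 and 7. Hk3 took 57.1% to 64.8% in KO and 50.2% to 57.0% in those WT, and Hk1 overlapped at 23.4% to 29.2% against 24.8% to 29.3%. The shares of WT 2, 3 and 4 (11.9% to 13.5% for Hk2 and 57.1% to 65.5% for Hk3) lay near those of KO. The summed level did not: it was 335 to 366 TPM in KO, 256 to 296 TPM in WT 1, 5, 6 and 7, and 259 to 307 TPM in WT 2, 3 and 4.

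**Figure D3:**
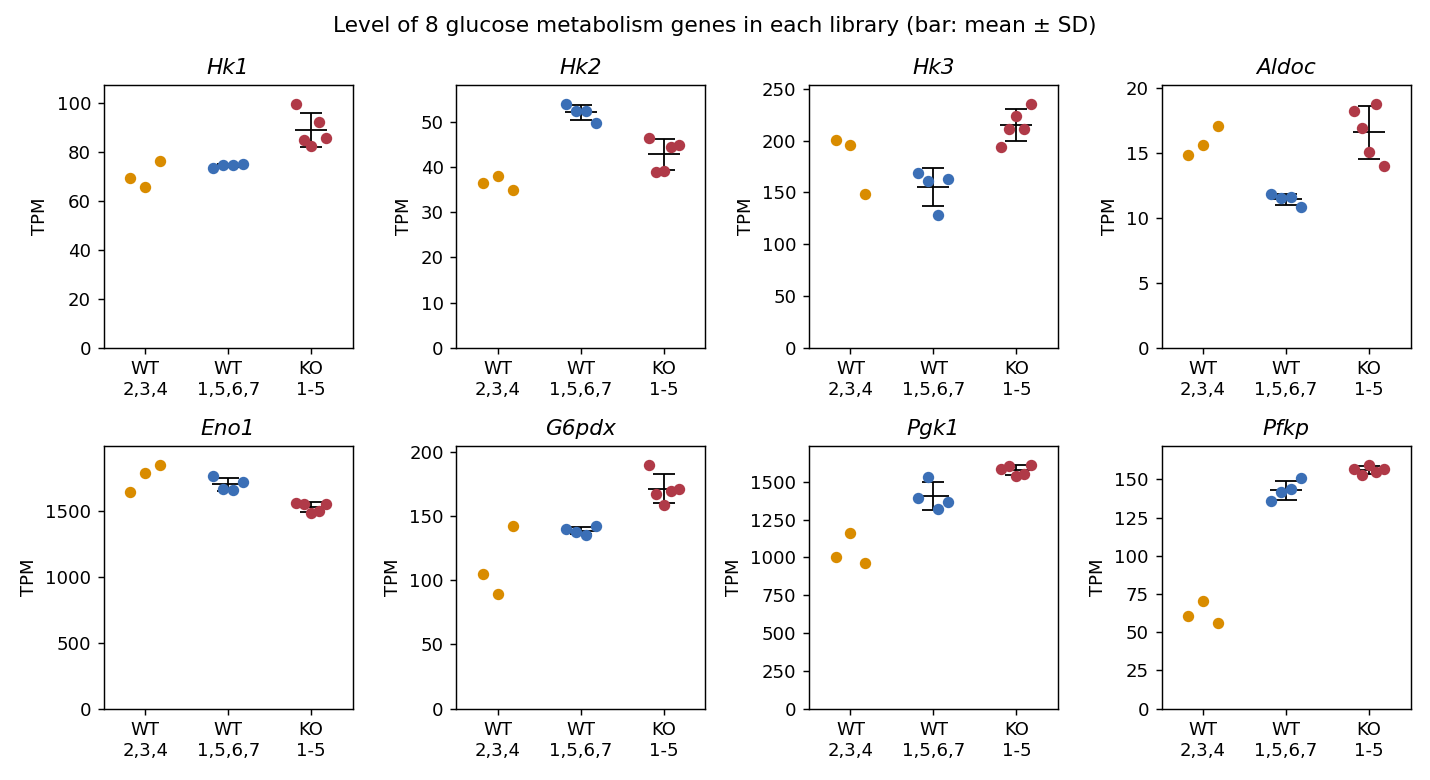
TPM of 8 genes in each library (points), by WT 2, 3 and 4, WT 1, 5, 6 and 7, and KO 1 to 5, with bars for mean ± SD of the last 2 groups. Hk1, Pgk1, Pfkp and G6pdx have every KO point above every WT point and Eno1 every KO point below, while for Hk2 and Aldoc WT 2, 3 and 4 sit on the KO side of the other WT. How often this occurs over all tested genes was not counted.

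Of the other upper glycolysis genes only Aldoc was called. Pfkp, the platelet-type phosphofructokinase, which with Pfkl (liver type) and Pfkm (muscle type) catalyses the committed step, was at 157, 153, 159, 155 and 157 TPM in KO and at 136, 141, 144 and 151 TPM in WT 1, 5, 6 and 7. WT 2, 3 and 4 had 60.7, 70.5 and 56.1 TPM. Every KO library was above every WT library, with log2 fold changes of 0.64 (limma adjusted p of 0.268) with 12 libraries and 0.13 (limma adjusted p of 0.0854) with 9. Pfkl was at 96.7 to 106 TPM in KO and 92.8 to 110 TPM in WT. In these 9 libraries Pfkp held 53.5% to 58.5% of the family's TPM, and the KO libraries (57.4% to 58.5%) were all above the WT (53.5% to 56.6%). In WT 2, 3 and 4 Pfkl was the leading form instead, at 55.0% to 56.7%, and Pfkm reached 7.33% to 11.8%, against 3.69% to 4.52% elsewhere. Gpi1, the isomerase after hexokinase, was at 416, 452, 451, 448 and 426 TPM in KO 1 to 5. It was at 471, 491, 491 and 465 TPM in WT 1, 5, 6 and 7 and at 374, 349 and 364 TPM in WT 2, 3 and 4. Gpi1 in every KO library lay below the former WT libraries and above the latter. Its 9-library estimate was -0.13 (limma adjusted p of 0.097), and -0.17 with median-ratio scaling (limma adjusted p of 0.0488). Pfkfb3 and Pfkfb4, which set the level of the phosphofructokinase activator fructose 2,6-bisphosphate, were at 43.1 to 53.7 and 15.5 to 17.8 TPM in KO and at 26.5 to 47.6 and 10.98 to 20.7 TPM in WT. KO 5 was above all WT libraries in Pfkfb3. Tpi1 overlapped between the genotypes, with a 95% interval of -0.11 to 0.07 on the log2 scale with 9 libraries.

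Aldoc (ENSMUSG00000017390, chromosome 11, 78322968 to 78327781, plus strand), the brain-type aldolase, was at 18.2, 16.9, 15.03, 18.7 and 13.98 TPM in KO 1 to 5 and at 11.8, 11.5, 11.6 and 10.8 TPM in WT 1, 5, 6 and 7. WT 2, 3 and 4 had 14.8, 15.6 and 17.1 TPM, within the KO range. Aldoc rose by 0.49 ± 0.0837 (SE) on the log2 scale with 9 libraries (limma adjusted p of 0.0214). The 12-library estimate was 0.31 (limma adjusted p of 0.256). Without KO 1 and KO 4 the fold change was 0.39 (limma adjusted p of 0.041). It remained a minor form: Aldoa, at 3154 to 3423 TPM in KO and 2593 to 3541 TPM in WT, made up 99.4% to 99.7% of the aldolase TPM in every library. Aldoc took 0.407% to 0.583% in KO and 0.306% to 0.341% in WT 1, 5, 6 and 7.

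In lower glycolysis Eno1 was called with 9 libraries and fell. Eno1 (ENSMUSG00000063524, chromosome 4, 150236721 to 150248879, plus strand), the main enolase, was at 1563, 1552, 1488, 1502 and 1557 TPM in KO 1 to 5, at 1768, 1671, 1661 and 1727 TPM in WT 1, 5, 6 and 7, and at 1648, 1794 and 1851 TPM in WT 2, 3 and 4. Every KO library was below every WT library. The log2 fold change was -0.16 ± 0.0332 (SE) with 9 libraries (limma adjusted p of 0.0453) and -0.18 ± 0.046 with 12 (limma adjusted p of 0.175). Without KO 1 and KO 4 it was -0.16 and not called (limma adjusted p of 0.087). Pgk1, the first ATP-yielding enzyme of the pathway, lay above all WT libraries in every KO library without being called. It was at 1585, 1607, 1542, 1554 and 1611 TPM in KO, at 1393, 1535, 1323 and 1365 TPM in WT 1, 5, 6 and 7, and at 1006, 1161 and 963 TPM in WT 2, 3 and 4. Its log2 fold change was 0.17 ± 0.0446 (SE) with 9 libraries (limma adjusted p of 0.0776) and 0.36 with 12 (limma adjusted p of 0.217). Gapdh, Pgam1, Pkm and Ldha overlapped between the genotypes. Their 95% intervals with 9 libraries were -0.10 to 0.04, -0.10 to 0.15, -0.08 to 0.07 and -0.16 to 0.08 on the log2 scale, and a difference inside these bounds is not excluded by these libraries. Pkm sums over transcripts that encode more than one enzyme form, which the gene-level values cannot separate. Eno2, the neuronal enolase, was at 3.55 to 9.76 TPM and below 0.7% of the enolases in every library.

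Ldhb, the heart-type lactate dehydrogenase, was lower in KO than in WT except that KO 2 lay just above WT 6, and it was not called. It was at 9.45, 12.8, 11.3, 9.26 and 10.7 TPM in KO 1 to 5, at 15.1, 15.5, 12.5 and 13.8 TPM in WT 1, 5, 6 and 7, and at 39.1, 36.8 and 53.9 TPM in WT 2, 3 and 4. Its log2 fold change was -0.39 ± 0.0976 (SE) with 9 libraries (limma adjusted p of 0.0732) and -1.04 with 12 (limma adjusted p of 0.229). Against Ldha, at 1577 to 2240 TPM across libraries, it took 0.566% to 0.708% in KO, 0.768% to 0.833% in WT 1, 5, 6 and 7 and 1.61% to 3.31% in WT 2, 3 and 4. The KO shares were all below those of both WT sets.

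The pyruvate dehydrogenase kinases, which inhibit the mitochondrial enzyme complex that turns pyruvate into acetyl-CoA, did not separate the genotypes with 9 libraries. Pdk1, a HIF target, was at 51.6 to 59.1 TPM in KO and 51.0 to 57.3 TPM in WT 1, 5, 6 and 7, with a limma adjusted p of 0.778. It was at 30.0, 34.3 and 19.3 TPM in WT 2, 3 and 4. Pdk2 was at 4.12 to 6.13 TPM in KO and 3.87 to 4.58 TPM in those 4 WT, and Pdk3 at 8.88 to 10.6 and 8.92 to 9.91 TPM. Pdk4, the remaining gene of the family, is not among the 42 and was added to the shares after its values were seen. It was at 33.4, 23.2 and 73.8 TPM in WT 2, 3 and 4 and at most 1.18 TPM elsewhere. Of the 4 kinases, Pdk1 took 76.4% to 79.3% in these 9 libraries and 37.7%, 46.9% and 17.1% in WT 2, 3 and 4. Pdk4 took 0.397% to 1.70% in the 9 and 42.1%, 31.7% and 65.4% in WT 2, 3 and 4, where it was above Pdk1 in WT 2 and WT 4. Pdk3 took 12.5% to 15.1% in the 9 and 16.5%, 16.5% and 13.7% in WT 2, 3 and 4, so WT 4 lay within the others.

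**Figure D4:**
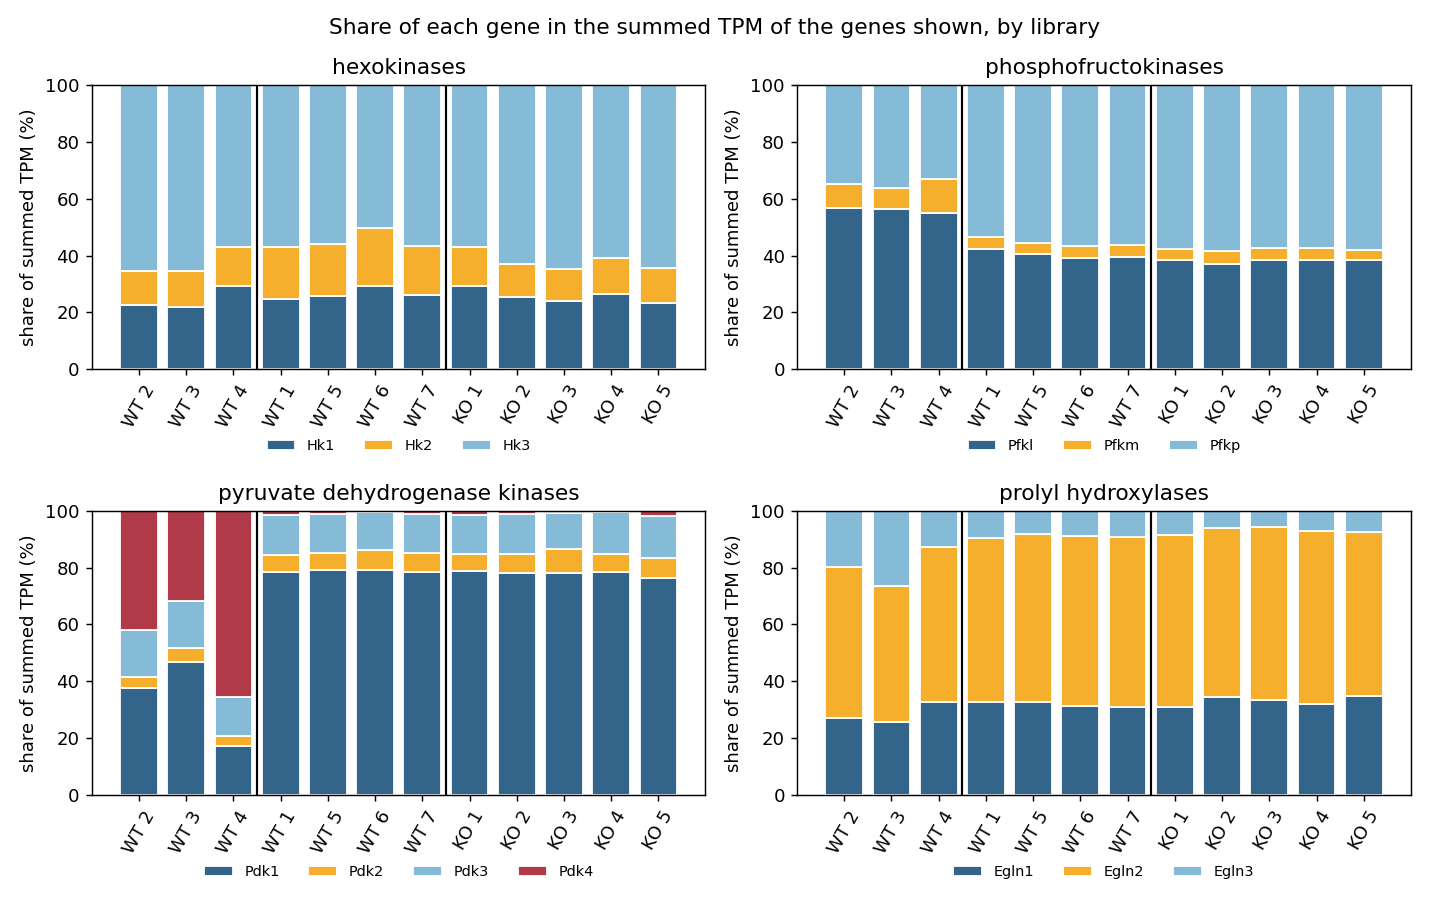
Share of each gene in the summed TPM of the genes shown, per library, for hexokinases (Hk1 to Hk3), phosphofructokinases, pyruvate dehydrogenase kinases (with Pdk4) and prolyl hydroxylases (with Egln2), with WT 2, 3 and 4 on the left, WT 1, 5, 6 and 7 in the middle and KO on the right. Pfkl leads in the left 3 libraries and Pfkp in the other 9, Pdk4 is visible on the left and hardly elsewhere, and Hk2 is smaller in KO than in the middle WT.

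G6pdx, the enzyme that commits glucose 6-phosphate to the pentose phosphate pathway, rose with 9 libraries and was the pathway's 1 called gene of 7. G6pdx (ENSMUSG00000031400, chromosome X, 74409483 to 74429194, minus strand) was at 190, 167, 159, 170 and 171 TPM in KO 1 to 5 and at 140, 137, 135 and 142 TPM in WT 1, 5, 6 and 7. In WT 2, 3 and 4 it was at 105, 89.1 and 142 TPM. Every KO library was above every WT library. The log2 fold change was 0.30 ± 0.0479 (SE) with 9 libraries (limma adjusted p of 0.0175, with 0.00825 to 0.0577 over the alternatives) and 0.44 ± 0.119 with 12 (limma adjusted p of 0.185). Without KO 1 and KO 4 it was 0.25 (limma adjusted p of 0.0243). Pgd, the other NADPH-yielding step, was at 506 to 560 TPM in KO and 554 to 604 TPM in WT 1, 5, 6 and 7, a log2 fold change of -0.14 with a limma adjusted p of 0.097. Pgls, which sits between them, had -0.13 (limma adjusted p of 0.143). Of the non-oxidative steps, Rpia had 0.23 (limma adjusted p of 0.165), Tkt -0.10 (limma adjusted p of 0.212), Rpe 0.05 and Taldo1 -0.02. Rpia was highest in KO 1 and KO 4, at 15.9 and 14.7 TPM, with 12.1, 12.2 and 12.9 TPM in KO 2, 3 and 5. It was at 11.1, 11.1, 11.4 and 11.8 TPM in WT 1, 5, 6 and 7, all below the KO libraries. WT 2, 3 and 4 had 13.2, 15.3 and 10.4 TPM.

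The hypoxia genes were not called in either fit. Hif1a was at 40.4 to 47.9 TPM in KO, 43.2 to 51.3 TPM in WT 1, 5, 6 and 7 and 39.7 to 47.4 TPM in WT 2, 3 and 4, with a 95% interval of -0.21 to 0.07 on the log2 scale with 9 libraries. Egln3, a prolyl hydroxylase and itself a HIF target, was at 8.28, 5.79, 5.68, 7.20 and 6.76 TPM in KO 1 to 5, at 9.46, 8.34, 8.67 and 9.26 TPM in WT 1, 5, 6 and 7, and at 20.9, 30.7 and 11.7 TPM in WT 2, 3 and 4. Every KO library was below every WT library, with KO 1 close to WT 5. The log2 fold change was -0.37 ± 0.0991 (SE) with 9 libraries (limma adjusted p of 0.0828), -0.82 with 12 (limma adjusted p of 0.234), and -0.49 without KO 1 and KO 4 as well (limma adjusted p of 0.0276). Egln1 was at 30.5 to 34.2 TPM in KO and 28.5 to 32.9 TPM in WT. Egln2, not among the 42, was the most abundant of the 3, and Egln3 took 5.58% to 8.40% of their sum in KO, 8.25% to 9.58% in WT 1, 5, 6 and 7 and 12.6% to 26.5% in WT 2, 3 and 4. Vegfa, the vascular growth factor, was at 54.1 to 79.3 TPM in KO and 62.7 to 76.4 TPM in WT 1, 5, 6 and 7, and at 131, 97.2 and 128 TPM in WT 2, 3 and 4. Bnip3, a mitophagy receptor, was at 104 to 118 TPM in KO and 113 to 116 TPM in the same 4 WT. P4ha1, a collagen prolyl hydroxylase, was at 109 to 126 and 120.2 to 127 TPM, a log2 fold change of -0.12 with a limma adjusted p of 0.212. Ndrg1, a stress response gene, ranged from 10.4 to 25.8 TPM within KO and from 20.2 to 39.0 TPM within WT. Adm, the vasodilator peptide adrenomedullin, was at 0.24 to 1.03 TPM in KO and 0.30 to 1.09 TPM in WT 1, 5, 6 and 7, and at 23.9, 11.9 and 27.99 TPM in WT 2, 3 and 4. Its 12-library log2 fold change of -1.71 has a 95% interval of -3.53 to 0.12 (limma adjusted p of 0.302), and with 9 libraries it was -0.15.

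WT 2, 3 and 4 lay outside the other WT libraries for 22 of the 42 genes. All 3 were above WT 1, 5, 6 and 7 for 10 genes (23.8%, against 29.9% of all tested genes) and below for 12 (28.6%, against 28.3%), so both shares are near the background. No test was made, since these libraries were picked from the data. The 10 genes above were Slc16a1, Pfkm, Aldoc, Ldhb, Pdk3, Taldo1, Vegfa, Egln3, Ndrg1 and Adm. The 12 below were Slc2a1, Slc16a3, Hk2, Gpi1, Pfkp, Pfkfb4, Pgk1, Pdk1, Pgls, Pgd, Tkt and Egln1. Against the other 9 libraries 9 were above and 11 below, and in 13 of those 20 genes WT 4 was the farthest. The same order, WT 4 then WT 2 then WT 3, held in 13 of the 20. These counts were not made over all tested genes, so whether they are particular to the 42 is not known. The part of cell type in the differences was not tested.

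The other genes of these pathways were read from lists made with the pathways in mind, but with earlier results of these data known. None was called with 12 libraries. With 9, H6pd, which starts a pentose phosphate branch in the endoplasmic reticulum, fell by 0.27 on the log2 scale (SE 0.0493, limma adjusted p of 0.0263). It was at 58.8 ± 3.33 TPM in KO (SD, n = 5) and 71.2 ± 3.28 TPM in WT 1, 5, 6 and 7 (SD, n = 4), with an estimate of 0.00 with 12 libraries. It was 1 of 5 tested genes in its list. No gene was called among 5 of glucose transport and phosphorylation, 8 of glycolysis and gluconeogenesis, 14 of pyruvate entry, 10 of glycogen and glycerol phosphate and 29 of the HIF pathway. At an unadjusted p under 0.05 with 9 libraries, these 5 lists had 1, 0, 1, 1 and 5 genes (20%, 0%, 7.14%, 10% and 17.2%). The pentose phosphate list had 2 of 5 (40%), and the share over all tested genes was 18.9%. WT 2, 3 and 4 were all above the other WT in 8 and all below in 2 of the 14 pyruvate entry genes, in 7 and 1 of the 10 glycogen and glycerol phosphate genes, and in 11 and 8 of the 29 HIF genes. The counts were 3 and 1 of 8 in glycolysis and gluconeogenesis, 2 and 2 of 5 in the pentose phosphate list, and 1 and 1 of 5 in glucose transport and phosphorylation. Over all tested genes the shares were 29.9% above and 28.3% below. Examples, chosen after their values were seen, are Pdk4 (above) and Angptl4 at 33.4, 28.1 and 37.9 TPM, against 5.40 to 7.62 TPM elsewhere. Both are known targets of PPAR receptors, which sense fatty acids.

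RefSeq promoter windows, 250 bases before to 50 after a start, were found for 40 of the 42 genes, 56 windows in all. ACGTG occurred on either strand in 27 of them (48.2%), against 19.6% of all 32851 windows and 20.9% of the 21262 protein-coding ones. ACGTG or GCGTG occurred in 78.6%, against 43.8% and 49.3%. The palindrome CACGTG, which holds ACGTG on both strands, occurred in 12.5%, against 7.15% and 7.84%. By role ACGTG was in 6 of 8 windows of the hypoxia genes, 3 of 3 of transport, 10 of 20 of upper glycolysis, 5 of 12 of lower glycolysis, 2 of 5 of the kinases and 1 of 8 of the pentose phosphate pathway. Base composition moves with these shares: the median GC content was 60.8% in the gene set, 52.7% over all windows and 56.3% over protein-coding ones, and its part was not tested. A gene with several starts counts more than once among windows. By gene, ACGTG was in 24 of 40, against 5886 of 27025 over all genes with windows and 4065 of 17491 protein-coding ones. Some of the 42 were listed as hypoxia targets, so these shares are no independent evidence about HIF.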

How the data were processed

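Per the labels' protocols, 12 libraries were prepared from total RNA with a NEBNext Ultra kit and read as pairs on a NovaSeq. Tools named are bcl2fastq and Salmon 1.2.0, with build mm10, per the submitters' processing notes. How transcripts were summed, and with which annotation and strand setting, is not given in the sources used here. In 1 table the authors deposited TPM values for 23438 Ensembl gene IDs, of which 23423 matched a GENCODE M21 symbol. The unit was taken from the values, which summed to 940127 to 947987 per library, since the labels do not name it. TPM keeps no depth, so no counting interval or limit was computed.

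Columns were mapped through the submission names in the labels, and no column was left unmapped. The planned design allowed for counts or TPM. Limma-trend (limma 3.58.1, R 4.3.3) was run on log2(TPM + 1), a pseudocount of 1, for genes reaching 1 TPM in 5 or more libraries, with genotype as the only term and Benjamini-Hochberg adjustment over all 11152. Errors are SE for fold changes and SD for levels. Fold changes on this scale understate changes of low genes. The fit was also run on simulated data, but no rate of recovered or false calls is given here. Nothing about the reliability of the calls is therefore concluded from that run. The 42 genes, the other lists and the 9-library set were chosen with earlier results of these data known. Named genes are the 42, with values per library for those called or not overlapping, and the called genes of the other lists. Smarcd1, Pdk4, Egln2, Angptl4, the near-identical copies and the cell type markers fall outside this rule. Pdk4 and Egln2 were added to the shares of their families after values were seen. Family shares are percent of summed TPM within a library. Promoters are RefSeq windows (GRCm38.p6), matched by symbol. Alternatives were a pseudocount of 0.1, no filter, median-ratio scaling, sample quality weights, a submission block, a replicate block and leaving out each library. The submission block set libraries with a number above 5 in their submission name apart from the rest. That cut was chosen for the fit and is not a batch named in the labels. Count models were not used.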

Additional observations from a re-analysis of the deposited data

Results flagged for a closer look

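Of 84 groups of values (42 genes in 2 genotypes), 4 held a library far from the others by Dixon's criterion, and chance alone flags about 1 in 20. Pfkfb3, which raises the activator of phosphofructokinase, was at 53.7 TPM in KO 5 and at 43.1 to 45.4 TPM in the other KO libraries. P4ha1 was at 126 TPM in the same library, against 109 to 114 TPM. Gapdh was at 5584 TPM in WT 3, against 4105 to 4607 TPM in the other WT. Ndrg1 was at 39.0 TPM in WT 2, against 20.2 to 27.7 TPM. WT 2 and WT 3 are among the 3 libraries with high fibroblast and smooth muscle markers, and the part of these in the values was not tested.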

How the results depend on the processing

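No called value of the 42 genes changed sign under an alternative. Of all genes, 14 were called with 12 libraries, and 4 with median-ratio scaling, 759 with sample quality weights, 3 with the submission block, 260 with 9 libraries, and 2 to 36 when each library was left out, highest without WT 6, with 21 without WT 4. For the 42 genes the count of 0 became 8 with quality weights and 6 with 9 libraries, and stayed 0 with each library left out. Deviations from genotype means gave no sign that replicate numbers pair the samples (correlations 0.222, 0.204, 0.135, -0.224 and -0.181, and only replicate 1 correlated best with its own number). Those deviations hold the divergence of WT 2, 3 and 4, so they cannot settle pairing. The replicate block left 0 genes called by limma on 10 libraries (3706 at an unadjusted p under 0.05), against 13 without it. With 9 libraries the 260 became 758 with quality weights, 132 with the submission block and 51 to 462 with each library left out. The 6 of the 42 became 3 without the filter, 11 with quality weights, 3 with the submission block, and 0 to 7 with each library left out. Scaling gave 218 genes and 7 of the 42, and leaving out KO 1 and 4 as well, chosen after seeing the data, gave 263 and 6. Without the filter 180 genes were called. Adding the other listed genes of each family, also chosen later, moved the median share of Pdk1 in WT 2, 3 and 4 from 65.1% to 37.7% and that of Egln3 from 42.3% to 19.9%. The cause of these differences was not tested. TPM gives no depth, so the precision of low genes such as Adm, Eno2 and Pdk2 is unknown.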
